A study of Mus musculus with 7 samples.

Results

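The genes described here were the insulin-like growth factors Igf1 and Igf2, their receptors Igf1r and Igf2r, and the IGF-binding proteins Igfbp2, Igfbp3, Igfbp4, Igfbp5, Igfbp6 and Igfbp7. These 10 genes were found by symbol among the 55416 Ensembl gene identifiers of the count files, and 9 of them passed the filter on low counts that left 13152 genes for testing. The family was chosen by the level of Igfbp4, which was low in both libraries from ONX-0914-treated mice. The level of Igfbp4 in those libraries is therefore a description without a test. Hippocampal RNA of male mice of the outbred CD1 stock was sequenced in 7 libraries. They came from 3 untreated control samples (replicates 1, 2 and 3), 2 samples of mice given DMSO, the vehicle (replicates 2 and 3), and 2 samples of mice given ONX-0914, an inhibitor of the immunoproteasome (replicates 1 and 2). ONX-0914 was injected into the peritoneum at 10 mg/kg, 2 times a week for 2 months, and DMSO on the same schedule. No allele or transgene was part of the design, and which of the treated mice gave each library is not given in the sources used here. The p-values therefore measure only the spread between these libraries, which may be in part technical.

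Insulin-like growth factors are secreted peptides related to insulin. IGF1 and IGF2 act through the receptor tyrosine kinase IGF1R, which signals through insulin receptor substrates to PI3K, AKT and mTOR, while IGF2R binds IGF2 and carries it to lysosomes. The binding proteins hold the ligands outside cells, prolong their life and limit or direct their access to the receptor, and proteases such as pregnancy-associated plasma protein A release the ligand by cutting the binding protein. In the hippocampus, IGF signalling is known for roles in neuronal survival, synaptic plasticity and the birth of granule cells.

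The total count on genes was 2842675 to 3877006 in 6 libraries and 13782270 in ONX-0914 replicate 2, and 89.6% to 91.4% of the reads in the count files were assigned to a gene. Both ONX-0914 libraries stood apart from the others and from each other. In ONX-0914 replicate 1 the summed CPM of 5 hippocampal neuron genes (Neurod6, Zbtb20, Spink8, Prox1 and Wfs1) was 0.239 times the control mean, and all 5 were below every control library. In the same library the striatal list stood at 5.34 times and the thalamus and midbrain list at 7.85 times the control mean. In ONX-0914 replicate 2 the hippocampal neuron list summed to 715 CPM, 0.863 times the control mean and below the control range of 802 to 852 CPM. Neurod6 stood there at 192 CPM against 346 to 377 CPM in control, while Spink8 and Wfs1 lay above every control library. The CA1, CA3 and dentate gyrus lists stood at 0.320, 0.623 and 0.328 times the control mean in ONX-0914 replicate 1. In ONX-0914 replicate 2 they stood at 1.07, 1.14 and 0.979 times. The blood list stood at 24.6 times the control mean in this library and at 2.83 times in ONX-0914 replicate 1. In each of these 2 libraries, 4 of its 5 genes lay above and 0 below every control library. The endothelial list was higher in both, at 1.76 and 1.70 times the control mean, with 8 and 7 of its 8 genes above every control library. In the control and DMSO libraries the same endothelial sum ranged from 0.963 to 1.24 times the control mean. The chi-square of the counts per degree of freedom was 2.5 to 3.2 between libraries of the same control or DMSO group and 76.9 between the ONX-0914 libraries. The part of tissue make-up in the results that follow was not tested, and in bulk tissue fewer cells of a type and less RNA per cell cannot be told apart.

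**Figure D1:**
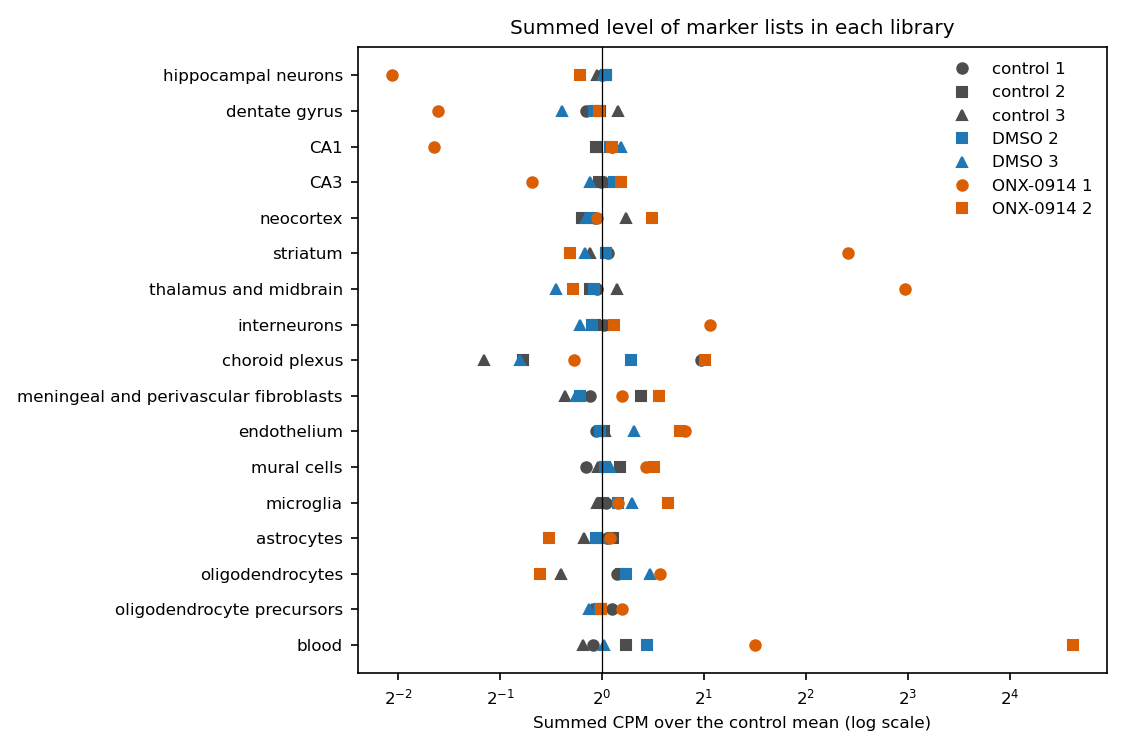
Summed CPM of each marker list in each library, divided by the control mean (log scale, base 2). Each point is 1 library. ONX-0914 replicate 1 lies at 0.239 for hippocampal neurons and 7.85 for thalamus and midbrain. ONX-0914 replicates 1 and 2 lie at 2.83 and 24.6 for blood, and both lie near 1.7 for endothelium.

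Igfbp4 encodes a secreted binding protein that restrains IGF action until it is cut by pregnancy-associated plasma protein A. Its promoter is shown because its level picked the family. RefSeq held a start for all 10 genes, 14 starts in all, on the GRCm38.p6 build. The count files were made on GRCm39, so that no position of the files is given. The 250 bases before the Igfbp4 start are at chr11:99040994-99041243 on the plus strand, with the letters TATAAA in capitals.
Igfbp4: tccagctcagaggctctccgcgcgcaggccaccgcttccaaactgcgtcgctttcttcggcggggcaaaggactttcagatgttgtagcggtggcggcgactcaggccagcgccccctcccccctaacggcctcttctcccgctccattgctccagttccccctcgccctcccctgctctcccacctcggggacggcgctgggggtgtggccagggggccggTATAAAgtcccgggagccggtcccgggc
The match runs from 28 to 23 bases before the start. On both strands, TATAAA was found in 2 of the 14 member windows (Igfbp4 and Igfbp6) and in 12.4% of the 32851 windows of all genes. Igfbp4 was the single member with TATAAA on the gene strand within the last 50 bases, a match held by 2.63% of all windows. GGGCGG was found in 6 of the 14 windows (Igfbp7, Igf1r, Igf2r, 1 of the 2 starts of Igfbp2 and 2 of the 4 starts of Igf2), against 32.7% of all windows, and not in that of Igfbp4. CCAAT was found in 3 of the 14 windows, against 33.8% of all windows. None of the 3 motifs is contained in another. GC made up 69.2% of the Igfbp4 window, and the median over all windows was 52.4%.

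Igfbp4 stood at 262, 183 and 222 CPM (counts per 1000000 counts of the library, with library sizes scaled by TMM) in the control libraries and at 233 and 218 CPM in the DMSO libraries. In the ONX-0914 libraries it stood at 54.6 and 62.4 CPM. Both ONX-0914 libraries lay below each of the other 5, and the DMSO libraries lay within the control range. Group means were 222 ± 39.2 CPM in control (SD, n = 3), 225 ± 10.9 CPM in DMSO (SD, n = 2) and 58.5 ± 5.54 CPM in ONX-0914 (SD, n = 2). The fitted Log2FC was −1.92 against control, a level 3.79-fold lower, and −1.94 against DMSO, a level 3.84-fold lower. Against control it was −1.84 without ONX-0914 replicate 1 and −2.02 without ONX-0914 replicate 2, which follows from the choice of a gene low in both and is no sign of stability. The part of tissue make-up in this level was not tested. Between DMSO and control, a comparison that did not pick the gene, the Log2FC was 0.02 (SE 0.192, 95% interval −0.42 to 0.46, FDR = 1). Behind these values were 217 and 945 counts in the ONX-0914 libraries and 610 to 869 counts in the others, so that counting error was small in each library.

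**Figure D2:**
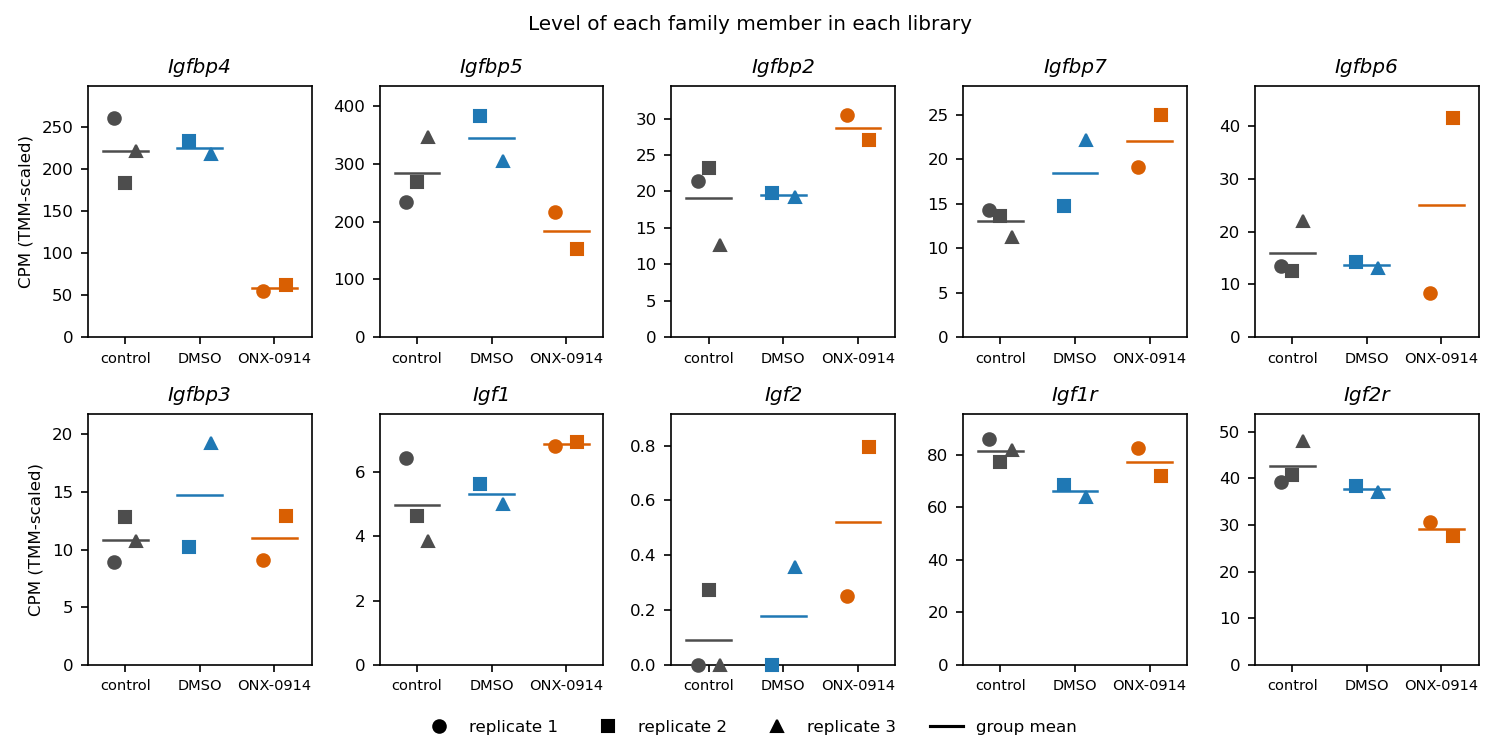
TMM-scaled CPM of the 10 genes in each of the 7 libraries, one panel a gene with its own linear axis from 0. Points are libraries, their shape is the replicate number and lines are group means. Igfbp4 is at 54.6 and 62.4 CPM in the ONX-0914 libraries and at 183 CPM or more elsewhere, and Igfbp6 is at 8.31 and 41.6 CPM in the ONX-0914 libraries.

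Igfbp5, the most conserved of the binding proteins and a binder of extracellular matrix, was besides Igfbp4 the only binding protein for which each ONX-0914 library lay under all 5 others. It stood at 235, 269 and 348 CPM in control, 384 and 306 CPM in DMSO, and 216 and 153 CPM in ONX-0914. The margin was narrow, since ONX-0914 replicate 1 lay close to control replicate 1. The Log2FC was −0.62 against control (SE 0.243, 95% interval −1.18 to −0.07, FDR = 0.230) and −0.90 against DMSO (SE 0.264, 95% interval −1.51 to −0.30, FDR = 0.218). Neither passed the threshold of 0.05. Against control it was −0.91 without ONX-0914 replicate 1 and −0.40 without ONX-0914 replicate 2. These fits assume the lone library to vary like the other groups, so that only the effect size is given.

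Igfbp2, a binding protein of fetal tissue, astrocytes and the choroid plexus, had its 2 highest levels in the ONX-0914 libraries. It stood at 21.4, 23.2 and 12.7 CPM in control, 19.9 and 19.3 CPM in DMSO, and 30.5 and 27.0 CPM in ONX-0914. The Log2FC of 0.59 against control (SE 0.267, 95% interval −0.02 to 1.202, FDR = 0.282) and of 0.55 against DMSO (SE 0.298, 95% interval −0.14 to 1.23, FDR = 0.401) did not pass the test. The choroid plexus list stood at 0.448 to 1.97 times the control mean in control and at 0.829 and 2.02 times in ONX-0914. Of its 10 genes, 3 and 5 lay above and 3 and 0 below every control library in ONX-0914 replicates 1 and 2. The astrocyte list stood at 0.888 to 1.08 times the control mean in control and at 1.05 and 0.697 times in ONX-0914. Of its 7 genes, 5 and 1 lay above and 1 and 5 below every control library in ONX-0914 replicates 1 and 2. The part of these cells in the Igfbp2 level was not tested.

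Igfbp7, a low-affinity IGF binder of blood vessel walls, stood at 14.3, 13.6 and 11.3 CPM in control, 14.8 and 22.1 CPM in DMSO, and 19.1 and 25.0 CPM in ONX-0914. Both ONX-0914 libraries lay above the controls, but DMSO replicate 3 lay between them. The Log2FC was 0.77 against control (SE 0.257, 95% interval 0.18 to 1.36, FDR = 0.184) and 0.28 against DMSO (SE 0.282, 95% interval −0.37 to 0.93, FDR = 0.628). The 3 libraries with the most Igfbp7 were also the 3 with the highest endothelial sums, 221 CPM in DMSO replicate 3 and 313 and 303 CPM in the ONX-0914 libraries against 171 to 182 CPM in the rest. The mural cell list, a second vessel list, stood at 1.35 and 1.42 times the control mean in ONX-0914, with 3 of its 8 genes above and 2 below every control library in each. Rgs5 and Vtn carried this sum, and the median Log2FC of its 6 genes tested was −0.002, with 3 positive and 3 negative. The part of vessel content in Igfbp7 was not tested. Of the Igfbp7 exon bases, 7.03% are shared with Polr2b on the opposite strand, and whether counting used strand is not given in the sources used here.

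Igfbp6, which prefers IGF2 over IGF1, differed most between the ONX-0914 libraries. It stood at 13.5, 12.5 and 22 CPM in control, 14.2 and 13.2 CPM in DMSO, 8.31 CPM in the first ONX-0914 library (replicate 1) and 41.6 CPM in the second (replicate 2). One ONX-0914 library was thus the lowest of all 7 and the other the highest. The Log2FC of 0.69 against control (SE 0.552, FDR = 0.509) became 1.35 without ONX-0914 replicate 1 and −0.96 without ONX-0914 replicate 2. The list of meningeal and perivascular fibroblasts, cells known to make this protein, stood at 1.15 and 1.48 times the control mean in these libraries, with 3 and 6 of 10 genes above and 1 and 0 below every control library. The first value lay inside the control range of 0.780 to 1.30 times, whose highest library, control replicate 2, had the lowest Igfbp6 of the controls. Of the 6 genes of the list that were tested, 3 had a positive and 3 a negative Log2FC, and no marker of the list was at 0 in the ONX-0914 libraries. Their part in the Igfbp6 level was not tested.

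Igfbp3, the main carrier of IGFs in blood, stood at 8.91, 12.8 and 10.7 CPM in control, 10.2 and 19.3 CPM in DMSO, and 9.06 and 12.9 CPM in ONX-0914. The ONX-0914 libraries lay within or next to the control range, and DMSO replicate 3 was the highest. The Log2FC was 0.04 against control (SE 0.334, 95% interval −0.72 to 0.81, FDR = 0.955) and −0.37 against DMSO (SE 0.364, 95% interval −1.21 to 0.46, FDR = 0.617).

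Igf1, the ligand made locally by microglia and some neurons, was a low transcript with 14 to 27 counts in 6 libraries and 105 in the deepest. It stood at 6.42, 4.64 and 3.86 CPM in control, 5.63 and 4.998 CPM in DMSO, and 6.80 and 6.94 CPM in ONX-0914. Both ONX-0914 libraries lay just above the highest control. The Log2FC was 0.49 against control (SE 0.317, 95% interval −0.24 to 1.21, FDR = 0.424) and 0.36 against DMSO (SE 0.353, 95% interval −0.45 to 1.17, FDR = 0.616), so that a difference was not detectable at this depth. The microglial list stood at 1.11 and 1.57 times the control mean in ONX-0914 and at 1.11 and 1.23 times in DMSO.

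Igf2, the second ligand, was close to the limit of detection. It had 0, 1 and 0 counts in control, 0 and 1 in DMSO, and 1 and 12 in ONX-0914, and it did not pass the filter. At the limit of 3 counts, which is one-sided, a count of 0 allows up to 1.07 CPM in control replicate 1, 0.826 CPM in control replicate 3 and 0.805 CPM in DMSO replicate 2. The 12 counts of the deepest library make 0.793 CPM (exact two-sided Poisson 95% interval 0.41 to 1.39). These intervals cover counting error only. In the annotation, 62.8% of the Igf2 exon bases are shared with Gm49394, a gene on the same strand with 0 counts in all 7 libraries, and counting that leaves out reads shared by both genes would lower the count of Igf2. The antisense gene Igf2os had 0 to 3 counts.

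Igf1r, the signalling receptor, was not called in any comparison. It stood at 85.9, 77.4 and 81.8 CPM in control, 68.7 and 63.9 CPM in DMSO, and 82.8 and 71.8 CPM in ONX-0914. The ONX-0914 values overlapped the control values, and both DMSO libraries were the lowest of the 7. The Log2FC was −0.08 for ONX-0914 against control (SE 0.161, 95% interval −0.45 to 0.29, FDR = 0.802), 0.22 against DMSO (SE 0.177, FDR = 0.549) and −0.30 for DMSO against control (SE 0.164, 95% interval −0.68 to 0.08, FDR = 1).

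Igf2r, the clearance receptor, had its 2 lowest levels in the ONX-0914 libraries. It stood at 39.2, 40.6 and 47.9 CPM in control, 38.4 and 37.1 CPM in DMSO, and 30.7 and 27.7 CPM in ONX-0914. The groups did not overlap, and the part of tissue make-up was not tested. The Log2FC of −0.55 against control (SE 0.183, 95% interval −0.97 to −0.13, FDR = 0.184) and of −0.37 against DMSO (SE 0.199, 95% interval −0.83 to 0.08, FDR = 0.394) did not pass the test. It was −0.64 against control without ONX-0914 replicate 1 and −0.48 without ONX-0914 replicate 2, with the lone library assumed to vary like the other groups. The ratio of Igf1r to Igf2r per length was 1.49 and 1.44 in the ONX-0914 libraries, beside 0.946 to 1.21 elsewhere.

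**Figure D3:**
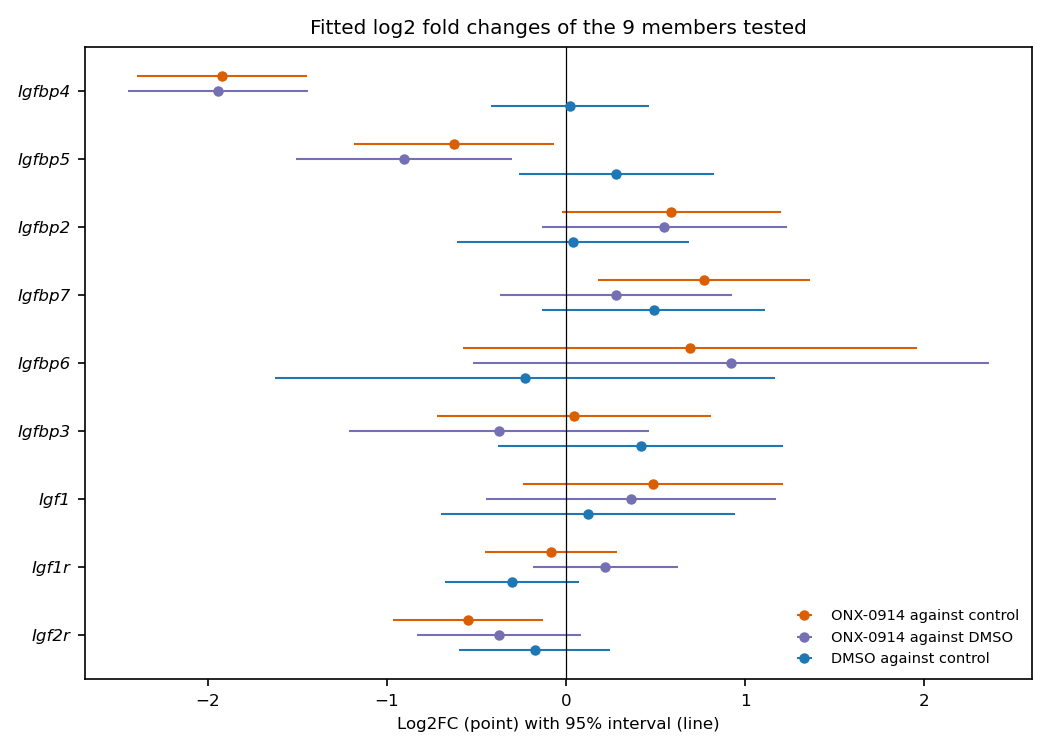
Fitted Log2FC (points) with 95% intervals (lines) of the 9 genes tested, in 3 comparisons that share libraries. Igfbp4 lies at −1.92 and −1.94 in the comparisons with ONX-0914 and at 0.02 for DMSO against control, and Igfbp6 has the widest intervals. The lines of Igfbp4 in the comparisons with ONX-0914 take no account of the choice of this gene and are no test.

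Leaving aside Igfbp4, 0 of the 8 genes tested were called for ONX-0914 against control, where 0.114% of all genes were called (15 of 13152), and 0 of 8 for ONX-0914 against DMSO, where 0.0456% were called. Of the 9 genes, 0 were called for DMSO against control, where 0.0152% of all genes were called. DESeq2 also called 0 of them in each comparison. At an unadjusted p under 0.05, 3 of 8 (Igfbp5, Igfbp7 and Igf2r) were found for ONX-0914 against control, 1 of 8 (Igfbp5) for ONX-0914 against DMSO and 0 of 9 for DMSO against control, beside 2447, 1937 and 349 of all 13152 genes. Of the 8 genes without Igfbp4, 2 (Igfbp5 and Igf2r) lay below and 2 (Igfbp2 and Igf1) above all 5 other libraries in both ONX-0914 libraries, a position held by 11.3% and 11.4% of all genes. Against the controls alone, 2 of the 8 lay below and 3 above, where 16.3% and 16.9% of all genes did. The place of Igfbp4 was fixed by the choice of the family. For DMSO against control, Igf1r and Igf2r lay below and Igfbp7 above all controls, where 15% and 15.7% of all genes did. The median Log2FC of the 8 genes without Igfbp4 was 0.27 for ONX-0914 against control, and that of all genes tested was 0.05.

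Levels of different genes were compared per exon length, as RPKM (the CPM per kilobase of exons). In control, Igfbp4 (50.3 ± 8.89 RPKM, SD, n = 3) and Igfbp5 (47.3 ± 9.63 RPKM) led the family, and their ranges overlapped. Igfbp6 (14.4 ± 4.69), Igfbp7 (10.8 ± 1.29) and Igfbp2 (10.3 ± 3.04 RPKM) followed, each overlapping its neighbour. The receptors Igf1r (4.87 ± 0.253) and Igf2r (4.58 ± 0.502 RPKM) overlapped each other, and below them came Igfbp3 (3.46 ± 0.624), Igf1 (0.502 ± 0.133) and Igf2 (0.0159 RPKM, with 2 control libraries at 0). RNA of the binding proteins was thus far above that of the ligands in every library. Igfbp4 ranked 1 or 2 in each control and DMSO library, and 4 and 5 in ONX-0914 replicates 1 and 2, where it was chosen as low.

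Igfbp4 made up 43.3%, 33.0% and 34.1% of the summed RPKM of the 6 binding proteins in control and 33.9% and 33.6% in DMSO, but 13.6% and 12.1% in ONX-0914. The sum itself was 137 ± 11.0 RPKM in control (SD, n = 3), 151 ± 6.19 in DMSO (SD, n = 2) and 104 ± 18.0 in ONX-0914 (SD, n = 2). Without Igfbp4 the sum was 77.5, 84.0 and 97.3 RPKM in control, 103 and 97.7 in DMSO, and 78.7 and 102 in ONX-0914. In the sum without Igfbp4 the ONX-0914 libraries were thus not below all controls, but ONX-0914 replicate 1 lay below both DMSO libraries. Igfbp6 made up 36.6% of this sum in ONX-0914 replicate 2, 9.49% in ONX-0914 replicate 1 and 12.2% to 20.4% elsewhere. In the ONX-0914 libraries the share of Igfbp7 was 17.4% and 17.7%, above the 6.33% to 12.5% of the other 5 libraries, and that of Igfbp2 was 18.1% and 12.6%, above 4.65% to 10.0%. Shares of one sum are not independent, since a lower Igfbp4 raises the others. With Igfbp4 left out of the sum, Igfbp7 still had its highest shares in the ONX-0914 libraries, at 20.1% and 20.2% against 9.60% to 18.7% elsewhere. Igfbp2 then had 20.96% and 14.3%, and the second value lay below control replicate 1 at 14.95%. The largest binding-protein RNA was Igfbp5 in ONX-0914 replicate 1, with 39.5% of the full sum, and Igfbp6 in ONX-0914 replicate 2, with 32.1%. The ratio of Igfbp5 to Igfbp4 per length was 2.91 and 1.80 in the ONX-0914 libraries, beside 0.659 to 1.21 elsewhere. Since Igfbp4 was chosen as low in the ONX-0914 libraries, its low share and the high ratio over it are descriptions only.

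**Figure D4:**
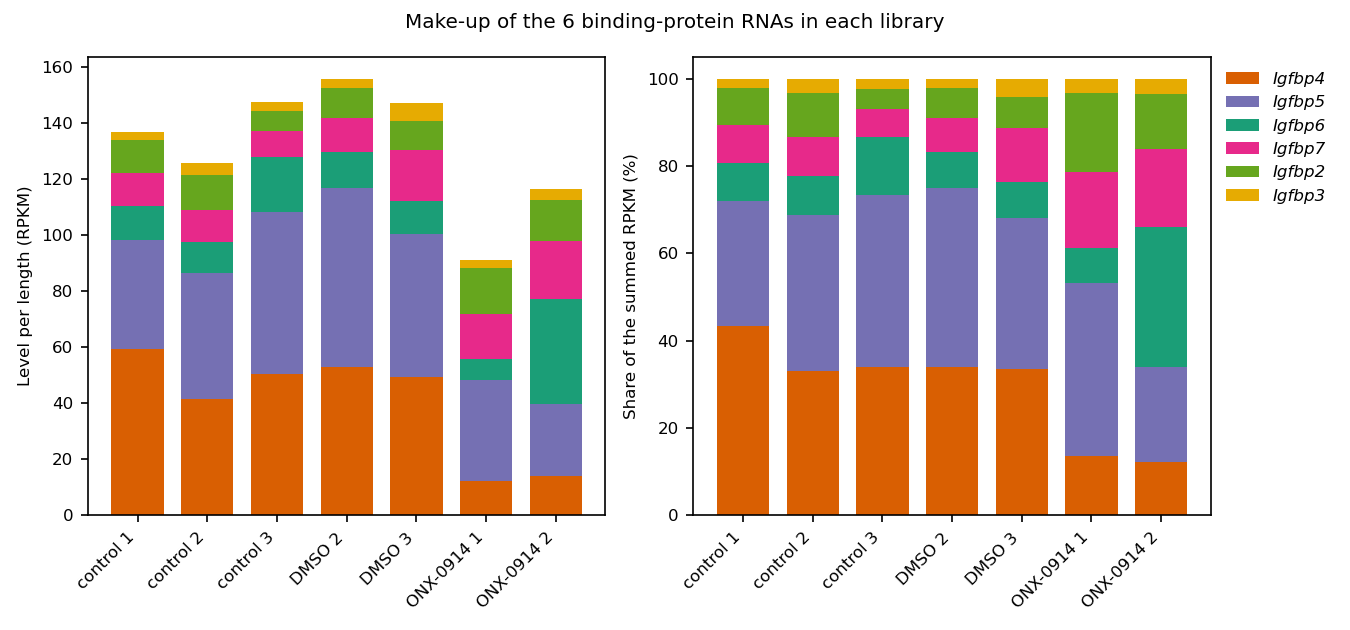
RPKM of the 6 binding-protein RNAs stacked for each library (left, linear axis from 0) and their shares of the sum in percent (right). The Igfbp4 segment is 13.6% and 12.1% of the sum in the ONX-0914 libraries and 33.0% to 43.3% elsewhere.

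A list of 42 other genes of the pathway was examined, of which 34 were tested. By edgeR, 0 of the 34 were called in any of the 3 comparisons. At an unadjusted p under 0.05 there were 8 of 34 for ONX-0914 against control, beside 2447 of all 13152 genes. For ONX-0914 against DMSO there were 8, beside 1937 of all genes, and for DMSO against control 0, beside 349. DESeq2 called 2, 2 and 0 of the list, and its calls over all genes are given with the alternatives below. The median Log2FC of the 34 for ONX-0914 against control was −0.07, beside 0.05 for all genes tested.

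Among the other binding proteins, Igfbp1, a binding protein of liver and decidua, had 0 counts in the control and DMSO libraries and 1 count in each ONX-0914 library. Igfbpl1, an IGF-binding protein-like gene of young neurons, had 1 to 17 counts per library. Neither passed the filter, so that no comparison was possible. Pappa, the protease that cuts IGFBP4, had 3 to 20 counts, or 1.07 to 3.22 CPM, with a Log2FC of 0.24 for ONX-0914 against control (SE 0.595, FDR = 0.848). Htra1, a secreted protease that also cuts binding proteins, was abundant at 204, 219 and 176 CPM in control, 203 and 208 CPM in DMSO, and 182 and 184 CPM in ONX-0914. Its Log2FC was −0.13 (SE 0.164, 95% interval −0.50 to 0.25, FDR = 0.691). Hence, the levels of these proteases did not pass the test in either direction.

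Insr, the insulin receptor, stood at 34.6 to 41.4 CPM in control, 33.8 and 33.2 CPM in DMSO, and 37.5 and 53.9 CPM in ONX-0914 (Log2FC = 0.29 against control, SE 0.206, FDR = 0.456). The insulin genes Ins1 and Ins2 had 0 counts in all 7 libraries. Irs1 and Irs2 are the adaptors that join the receptors to PI3K. Irs1 had a Log2FC of −0.20 (SE 0.225, FDR = 0.641). Irs2 stood at 28.6 to 32.1 CPM in control and at 31.2 and 65.5 CPM in the ONX-0914 libraries (Log2FC = 0.69, SE 0.312, FDR = 0.282), so that the difference lay in replicate 2.

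Grb10, an adaptor that inhibits IGF1R and insulin receptor signalling, had the lowest unadjusted p of the list for ONX-0914 against control, and it was chosen after its values were seen. It stood at 18.9, 16.4 and 21.5 CPM in control, 18.0 and 17.1 CPM in DMSO, and 53.6 and 35.1 CPM in ONX-0914. Both ONX-0914 libraries lay above all others. The Log2FC was 1.22 (SE 0.239, 95% interval 0.67 to 1.77, FDR = 0.0796), which missed the threshold in edgeR, and DESeq2 gave 1.204 with an adjusted p of 0.0152. Shc3, a neuronal adaptor also chosen after its values were seen, stood at 25.7, 29.7 and 36.9 CPM in control, 31.1 and 18.2 CPM in DMSO, and 81.5 and 43.6 CPM in ONX-0914 (Log2FC = 1.01, SE 0.324, FDR = 0.176). Both were higher in ONX-0914 replicate 1, the library with striatal and thalamic transcripts, and the part of tissue make-up was not tested.

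In the list of PI3K and AKT genes, 5 of 8 had a negative Log2FC for DMSO against control (62.5%, beside 50.5% of all genes tested). For ONX-0914 against control 7 of 8 had a negative Log2FC (87.5%, beside 46.2% of all genes tested), and 0 of 8 were called. Akt1, which stood at 241 and 160 CPM in the ONX-0914 libraries and at 214 to 233 CPM in control, had a Log2FC of −0.16 (SE 0.202, FDR = 0.691). The exception in sign was Pik3ca, a catalytic PI3K subunit, chosen after its values were seen. It stood at 39.2, 42.0 and 41.3 CPM in control, 41.3 and 36.4 CPM in DMSO, and 60.2 and 76.5 CPM in ONX-0914 (Log2FC = 0.75, SE 0.178, FDR = 0.119).

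Among the 13 outputs of the pathway, Foxo1, a transcription factor that AKT keeps out of the nucleus, had a Log2FC of 0.10 (SE 0.290, FDR = 0.867) and stood at 17.4 and 34.7 CPM in the ONX-0914 libraries against 24.2 to 25.4 CPM in control. Mtor, the growth kinase, stood at 90.8 to 99.97 CPM in control and at 90.6 and 98.4 CPM in ONX-0914 (Log2FC = −0.004, SE 0.153, 95% interval −0.36 to 0.35, FDR = 0.991). Foxo6, a FOXO factor of the hippocampus, was chosen after its values were seen. It stood at 15.7, 13.9 and 17.9 CPM in control, 25.0 and 19.6 CPM in DMSO, and 7.80 and 9.91 CPM in ONX-0914. Both DMSO libraries thus lay above all controls. DESeq2 called it for ONX-0914 against DMSO, with a Log2FC of −1.33 and an adjusted p of 0.0426, and edgeR gave −1.31 (FDR = 0.128). For ONX-0914 against control edgeR gave −0.81 (SE 0.249, FDR = 0.167), and DESeq2 did not call it. The outputs had 7 positive and 6 negative Log2FC values and a median of 0.07.

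**Figure D5:**
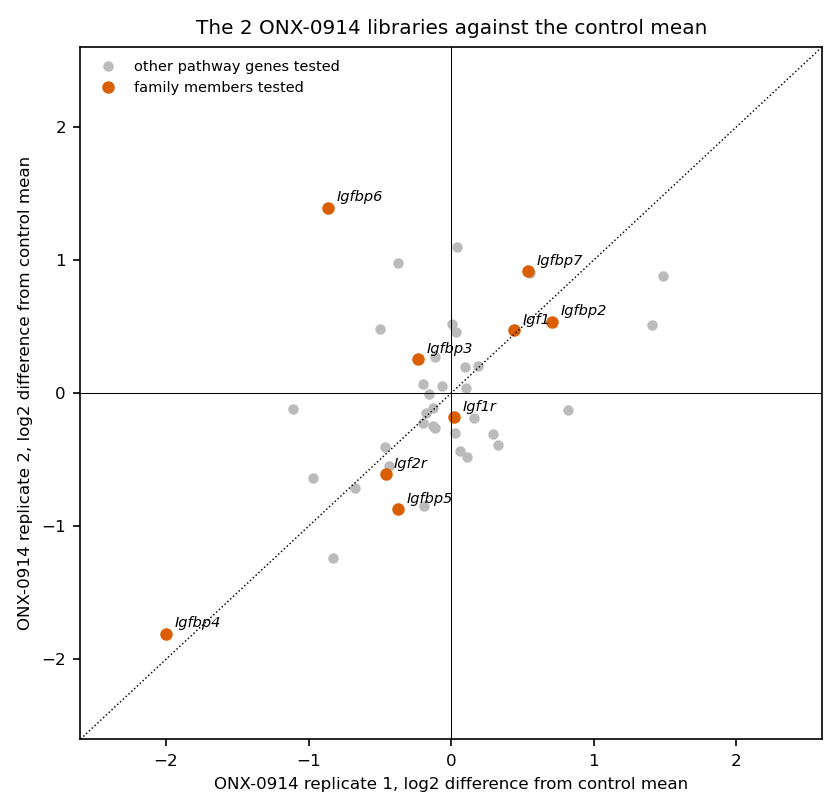
Log2 difference from the control mean in ONX-0914 replicate 1 (horizontal) and replicate 2 (vertical), for the 9 family members tested (orange) and the 34 other pathway genes tested (grey). The dotted line marks equal values. Igfbp4 lies at −2.0 and −1.81, and Igfbp6 lies at −0.87 and 1.39, on opposite sides of 0.

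Genes with a pattern like that of a member were ranked by Pearson's r of log2 CPM over the 7 libraries, among 9519 genes with a mean of 10 CPM or more, as a description. The libraries share their groups and their differences in tissue make-up. For Igfbp4 the nearest were St6galnac5 (r = 0.995), Rgmb (r = 0.993), Arhgef28 (r = 0.993), Wdr26 (r = 0.990) and Ezr (r = 0.990). For Igfbp2 they were Rhobtb3 (r = 0.985), Hmgn2 (r = 0.975), Fermt2 (r = 0.970), Zfp397 (r = 0.968) and Itgb1bp1 (r = 0.951). The nearest to Igfbp5 was Tent4a (r = 0.982), to Igfbp6 Carm1 (r = 0.991), to Igfbp7 Tmem181b-ps (r = 0.980) and to Igfbp3 Mxd4 and Ankra2 (both r = 0.964). The nearest to Igf2r was Dido1 (r = 0.999), to Igf1r Fat3 (r = 0.974) and to Igf1 Svip (r = 0.975). No likeness is given for Igf2, which had 0 or 1 counts in 6 libraries. Each of the 9 members tested had at least 1 gene with an r of 0.964 or more. That is the highest r among 9519 genes or more over 7 libraries. It was not computed for genes outside the family, so that it is no trait of the members. The pattern of Igfbp4 includes the ONX-0914 levels that chose the family.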

How the data were processed

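For each library the authors deposited a table of raw counts, the whole number of reads on each gene without normalization. The submitters' processing notes name Trimmomatic 0.39, STAR 2.7.3a, featureCounts 2.00 and the GRCm39 build. The libraries were directional and read single-end. The annotation and the strand setting are not given in the sources used here. Symbols and exon lengths came from GENCODE M21, which held 52083 of the 55416 identifiers. Lines for unassigned reads stayed out of library sizes and tests.

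The fits were made with edgeR 4.0.16 in R 4.3.3 (filterByExpr, TMM, glmQLFit and glmQLFTest with 1 mean per group over all 7 libraries, Benjamini-Hochberg adjustment over 13152 genes, FDR threshold 0.05). Log2FC values carry a prior count of 0.125. CPM used TMM-scaled totals. Differences of single libraries from the control mean used log2(CPM + 0.5), and likeness used a prior count of 2 on the log2 CPM scale. Simulated counts with known changes were used to test these steps. The total count per library (2842675 to 13782270) limits the precision of low genes.

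The members, gene lists and tests were chosen with earlier results of these data known. Named were all members, 11 pathway genes and any pathway gene called, and genes outside this rule are marked as chosen after their values were seen. The result of 1 gene named by the rule is not reported here. Alternatives were RLE size factors, library totals, DESeq2 1.42.0, no filter, the compared groups alone, a replicate block and leaving out each library. The earlier form of the edgeR fit and thinning of ONX-0914 replicate 2 were added after seeing the data. RefSeq promoters were searched on both strands.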

Additional observations from a re-analysis of the deposited data

How the results depend on the processing

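Igfbp4, whose direction the choice of the family fixes, had in the 15 alternatives a Log2FC of −2.04 to −1.78 against control and −2.05 to −1.81 against DMSO. The count of other members called remained 0 in every alternative except those without an ONX-0914 library, where the lone library is assumed to vary like the other groups. Leaving out each library in turn gave 0 to 4 members for ONX-0914 against control (4 without replicate 1: Igfbp5, Igfbp6, Igfbp7 and Igf2r) and 0 to 3 for ONX-0914 against DMSO (3 without replicate 1 and 1 without replicate 2). It gave 0 to 16 pathway genes (9 without ONX-0914 replicate 2) and 0 to 15 (7 without it), and for all genes 0 to 7023, 0 to 146 and 0 to 6313 calls for ONX-0914 against control, DMSO against control and ONX-0914 against DMSO. Without a control library, 0 genes were called in each comparison.

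In the same order of comparisons, the calls over all genes were 15, 2 and 6. They were 388, 9 and 238 with DESeq2, 578, 11 and 297 with no filter, and 3, 141 and 0 with the compared groups alone. For ONX-0914 against DMSO they were 11 with RLE size factors and 3 with library totals, and for ONX-0914 against control they were 36 with ONX-0914 replicate 2 thinned. Pathway genes called for ONX-0914 against control and against DMSO were 2 and 2 with DESeq2 and 1 and 3 with no filter. The cause of these shifts was not tested. Correlations of deviations from the group mean were −0.0963 to 0.064 for same-numbered libraries. In a group of 2 libraries these deviations mirror each other, so that the values cannot decide whether the replicate numbers pair the libraries. With the number as a replicate block 1, 0 and 0 genes were called.

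For ONX-0914 against control, values near 0 changed sign with library totals (Igf1r 0.05745, Htra1 0.01328, Mtor 0.1397) and for Mtor also with no filter (0.01595), the replicate block (0.03071) and thinning (0.01741). Library totals moved the median Log2FC of all genes from 0.05 to 0.19. Leaving out 1 library gave −0.28 to 0.22 for Igfbp3, −0.96 to 1.35 for Igfbp6, −0.19 to 0.01841 for Igf1r, −0.06971 to 0.04269 for Mtor, −0.27 to 0.91 for Pappa, −0.49 to 0.11 for Akt1 and −0.51 to 0.48 for Foxo1. For DMSO against control it gave −0.19 to 0.21 for Igfbp2, −0.10 to 0.82 for Igfbp3, −0.10 to 0.15 for Igfbp4, −0.38 to 0.07582 for Igfbp6 and −0.03698 to 0.33 for Igf1, and for ONX-0914 against DMSO −0.79 to 0.13 for Igfbp3, −0.73 to 1.59 for Igfbp6 and −5.258e-05 to 0.59 for Igfbp7. With 2 or 3 libraries per group and under 30 counts in most libraries, differences of Igf1, Igf2 and Pappa were not detectable at this depth.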
